A study of Homo sapiens with 12 samples.

Results

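The replication-dependent core histone genes were examined in HEK293T cells and in R1, a methionine-independent clone of HEK293T, grown with methionine or with homocysteine in its place. Members were the rows of the count table whose symbol is H2AC, H2BC, H3C or H4C followed by a number, and 60 of the 23500 genes listed met the rule. These were 16 H2A, 17 H2B, 13 H3 and 14 H4 genes, each with 1 row. Of the 60 members, 44 passed the filter on low counts (a summed count of at least 10 over the 12 libraries) and were among the 17162 genes tested, namely 13 H2A, 11 H2B, 9 H3 and 11 H4 genes.

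The 4 groups were HEK293T in +Met, HEK293T in −Met+Hcy, R1 in +Met and R1 in −Met+Hcy, all for 12 h, with 3 libraries each. HEK293T is a transformed human embryonic kidney line that carries adenovirus E1 genes and SV40 large T antigen, and these are shared by all 4 groups. −Met+Hcy medium lacks methionine and holds homocysteine, its metabolic precursor. R1 is a single clone, so differences between R1 and HEK293T cannot be told apart from differences between one clone and its parent in general. R1 libraries are named as such in their titles, though their cell line field says HEK293T. Nothing says whether the replicates are separate cultures, so p-values measure the spread between these libraries.

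Core histones form the protein spool of the nucleosome, in which an H3-H4 tetramer is flanked by H2A-H2B dimers. Their replication-dependent genes lie in clusters, lack introns in their main transcript, and are expressed mostly in S phase, when new DNA has to be packed. Most of their mRNAs end in a conserved stem-loop instead of a poly(A) tail. SLBP binds the stem-loop and guides cleavage, export, translation and decay of the mRNA, and NPAT drives transcription at the clusters. Some of these genes can also give transcripts that read past the stem-loop and are polyadenylated.

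All 60 members were found in the GENCODE annotation of GRCh38, 49 on chromosome 6 and 11 on chromosome 1, and the canonical transcript of each has 1 exon. The histone stem-loop was found by a pattern search in the canonical transcript of 57 members, in 7 distinct forms of its 16 bases, and was not matched in H2BC10, H3C6 and H4C13. The sites of 5 members that carry the results are shown because they mark where the non-polyadenylated mRNA ends, a few bases further on. Capitals mark the 16 bases of the stem-loop, written as DNA on the gene's strand, in the 3′ UTR.

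H2AC6: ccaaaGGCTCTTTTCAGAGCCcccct
H2BC12: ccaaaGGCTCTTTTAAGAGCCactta
H3C10: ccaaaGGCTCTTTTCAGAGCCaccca
H4C11: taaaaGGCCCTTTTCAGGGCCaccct
H4C14: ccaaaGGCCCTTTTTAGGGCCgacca

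In GRCh38 the capitals lie at chr6:26124669-26124684 (H2AC6, plus strand), chr6:27146366-27146381 (H2BC12, minus strand), chr6:27810516-27810531 (H3C10, plus strand), chr6:27824459-27824474 (H4C11, plus strand) and chr1:149833032-149833047 (H4C14, plus strand). They begin 43, 36, 31, 22 and 35 bases after the stop codon, in that order. The H2A, H2B and H3 forms shown share the GGCTC arm, and both H4 forms have GGCCC instead.

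Promoter sequence was available from RefSeq (GRCh38.p14, 250 bases before to 50 after the start) for 55 members. CCAAT, searched on both strands, was present in all 15 H2A, 17 H2B and 11 H3 genes with a sequence and in 3 of 12 H4 genes, against 34.6% of the 35116 promoters in the table. TATAAA was present in 39 of the 55 (11.5% of all promoters). ATTTGCAT, the octamer bound by POU2F1 (OCT1), was present in 11 of 15 H2A, 14 of 17 H2B, 1 of 11 H3 and no H4 genes (1.77% of all promoters). The H3 gene was H3C4, and its match came from a second listed start that is also the start of H2AC7. At the other listed start of H3C4 the octamer was absent. GGTCCG, letters of the element that HINFP binds in H4 promoters, was present in 11 of 12 H4 genes and in 1 each of the H2A, H2B and H3 genes (11.3% of all promoters). TGATGCAA, the letters of an amino acid response element, was in none of the 55 (0.866% of all promoters). Where an H2A and an H2B gene start close together on opposite strands, the searched stretches overlap and 1 site can count for both genes. H2AC7 and H2BC7, whose starts are 223 bases apart, share an octamer in this way. The reverse of GGTCCG can share the letters CC with CCAAT, and a match is a description of the letters only.

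The 120 bases before the start are shown for 4 members, one per histone, because these were the members with the most counts or the largest change in their class. Capitals mark matches, on either strand, to the motifs above.

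H2AC6: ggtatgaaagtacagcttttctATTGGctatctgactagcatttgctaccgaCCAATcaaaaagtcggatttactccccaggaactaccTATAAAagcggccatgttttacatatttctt
H2BC12: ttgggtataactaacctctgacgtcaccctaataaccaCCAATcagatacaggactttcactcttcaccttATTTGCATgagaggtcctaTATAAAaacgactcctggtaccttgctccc
H3C10: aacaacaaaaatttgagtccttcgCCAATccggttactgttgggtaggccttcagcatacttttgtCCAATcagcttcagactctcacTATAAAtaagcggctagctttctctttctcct
H4C14: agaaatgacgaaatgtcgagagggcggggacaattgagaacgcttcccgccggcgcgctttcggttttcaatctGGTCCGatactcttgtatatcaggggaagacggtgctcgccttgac

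These lie at chr6:26124052-26124171 (H2AC6, plus strand), chr6:27146856-27146975 (H2BC12, minus strand), chr6:27809931-27810050 (H3C10, plus strand) and chr1:149832537-149832656 (H4C14, plus strand) of GRCh38.p14. H2AC6, H2BC12 and H3C10 each hold CCAAT and TATAAA in this stretch, H2BC12 also holds the octamer, and H4C14 holds GGTCCG alone among the motifs searched. The octamer of H2AC6 lies in the searched sequence but outside the bases shown.

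Library totals ran from 12664158 to 18771349 estimated counts, and levels are given in CPM, the count scaled to the library's column sum. Whether RNA was selected by poly(A) is not given in the sources used here, nor is library strand. If it was, the levels, shares and folds below describe the polyadenylated transcripts of these genes and not their main mRNA, and the files do not tell these cases apart. The HEK293-like markers were present (7 of 9 over 1 CPM in HEK293T, all 9 in R1, with PAX2 and LHX1 under 1 CPM in HEK293T), while of 8 markers of other cells COL1A1 alone exceeded 1 CPM and LYZ, KRT5, KRT14 and KRT6A were at 0. The library R1 −Met+Hcy replicate 3 stood apart. GC content was rank-correlated with each gene's deviation, in a library, from its mean log2 CPM over the 12 libraries. This correlation was −0.687 in R1 −Met+Hcy replicate 3, against −0.155 to 0.496 in the other 11. Leaving that library out lowered the common dispersion from 0.109 to 0.0349. In that library 28 of the 44 tested members were at 0, against 1 to 11 in the others, and members at 0 and above 0 had like GC content (medians of 58.3% and 58.7%). Comparisons that use its counts are given with and without it. In a bulk sample a change in the share of cells in S phase and one in histone mRNA per cell cannot be told apart. This holds for higher and for lower counts. The paper reports that synchronized HEK293T cells stopped in S/G2 in −Met+Hcy while R1 kept cycling. Whether this bears on the counts was not tested. TMM scaling put the HEK293T −Met+Hcy against +Met difference 0.294 lower on the log2 scale than column sums did, and R1 against HEK293T in +Met 0.353 lower.

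H2BC12 was the most abundant member. Per kilobase of canonical transcript its mean over the 12 libraries was 104.5 CPM, followed by H2AC6 (16.2), H2AC18 and H2AC19 (15.03 for the former), H4C14 (14.8), H2BC5 (11.8) and H4C15 (11.1), and all others were at 5.17 or less. This order pools groups that differ. The places of H2AC18 and H2AC19 also depend on how reads were split between them, since their counts are identical. In HEK293T +Met, H2BC12 led at 53.2 CPM per kilobase, followed by H2AC18 and H4C14 (both 4.23), while H2AC6 was at 1.58. H2BC12 made up 71.3 to 89.3% of the H2B counts of a library. Within H2A, H2AC6 took 8.23% of counts in HEK293T +Met (mean of 3 libraries) and 29.3% in −Met+Hcy, and in R1 it took 20.3% and 38.3% (26.4% without R1 −Met+Hcy replicate 3). Within H3, the share of H3C10 was 6.03% in HEK293T +Met and 33.4% in −Met+Hcy, while in R1 it was 4.76% and 2.60% (3.90% without that library). H4C14 held 22.0% and 34.1% of H4 counts in HEK293T and 45.9% and 41.9% in R1 (45.7% without it).

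Some members cannot be told apart by their reads. H2AC18 and H2AC19, H3C14 and H3C15, and H4C11 and H4C12 had identical counts in all 12 libraries, and the count of H4C15 was 0.727 to 0.773 times that of H4C14 in every library. The first 3 pairs are therefore counted as 6 genes below but carry 3 sets of values, and reads of other near-identical genes may have been split among them by the estimation. Of the 16 members not tested, H2AC1, H2BC1, H2BC10, H3C8, H3C11, H4C6, H4C7 and H4C13 were at 0 in every library. The other 8 had summed counts of 9 (H2AC8), 1 (H2AC14), 3 (H2BC3), 5 (H2BC6), 9 (H2BC7), 1 (H2BC14), 3 (H3C3) and 6 (H3C7). H2AC4, H2AC21, H2BC8, H2BC9, H4C1 and H4C9 reached the minimum only through the HEK293T −Met+Hcy libraries, so their part in any count of higher members there is set by the filter.

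Summed over members, each of the 4 histones had more counts in HEK293T −Met+Hcy than in +Met, with no overlap between the groups. The H2A genes summed to 10.8, 8.63 and 10.3 CPM in the +Met libraries and to 72.9, 91.5 and 89.0 in −Met+Hcy, a ratio of means of 8.54. The H2B genes went from 31.8 ± 2.34 CPM to 100.4 ± 4.53 (SD, n = 3; ratio 3.16), and without H2BC12 the ratio was 5.18. Leaving out the leading member of the other histones gave ratios of 6.59 (H2A without H2AC6), 5.41 (H3 without H3C10) and 3.56 (H4 without H4C14). The H3 genes were lowest throughout, at 2.48 ± 0.0775 and 18.8 ± 2.14 CPM (ratio 7.59). The H4 genes were at 7.57 ± 1.30 and 31.9 ± 3.32 CPM (ratio 4.21). All 60 members together summed to 51.7 ± 4.08 CPM in +Met and 235.5 ± 17.2 in −Met+Hcy.

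In R1 the +Met sums were 12.3 ± 1.23 CPM (H2A), 57.5 ± 5.63 (H2B), 4.43 ± 0.830 (H3) and 11.7 ± 1.94 (H4). Relative to HEK293T in +Met the ratios were 1.24, 1.81, 1.79 and 1.54 by column sums, and 0.968, 1.42, 1.40 and 1.21 with TMM-scaled library sizes, so the direction for H2A depended on the scaling. The −Met+Hcy libraries of R1 were widely spread. H2A genes summed to 26.7, 14.04 and 9.54 CPM, H2B genes to 91.3, 74.2 and 51.0, H3 genes to 8.09, 5.73 and 3.89, and H4 genes to 22.2, 9.29 and 6.23. The third library was the lowest for each histone. The ratios of −Met+Hcy to +Met were 1.37 for H2A, 1.25 for H2B, 1.33 for H3 and 1.08 for H4, and without R1 −Met+Hcy replicate 3 they were 1.66, 1.44, 1.56 and 1.35. These sums were not tested.

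**Figure D1:**
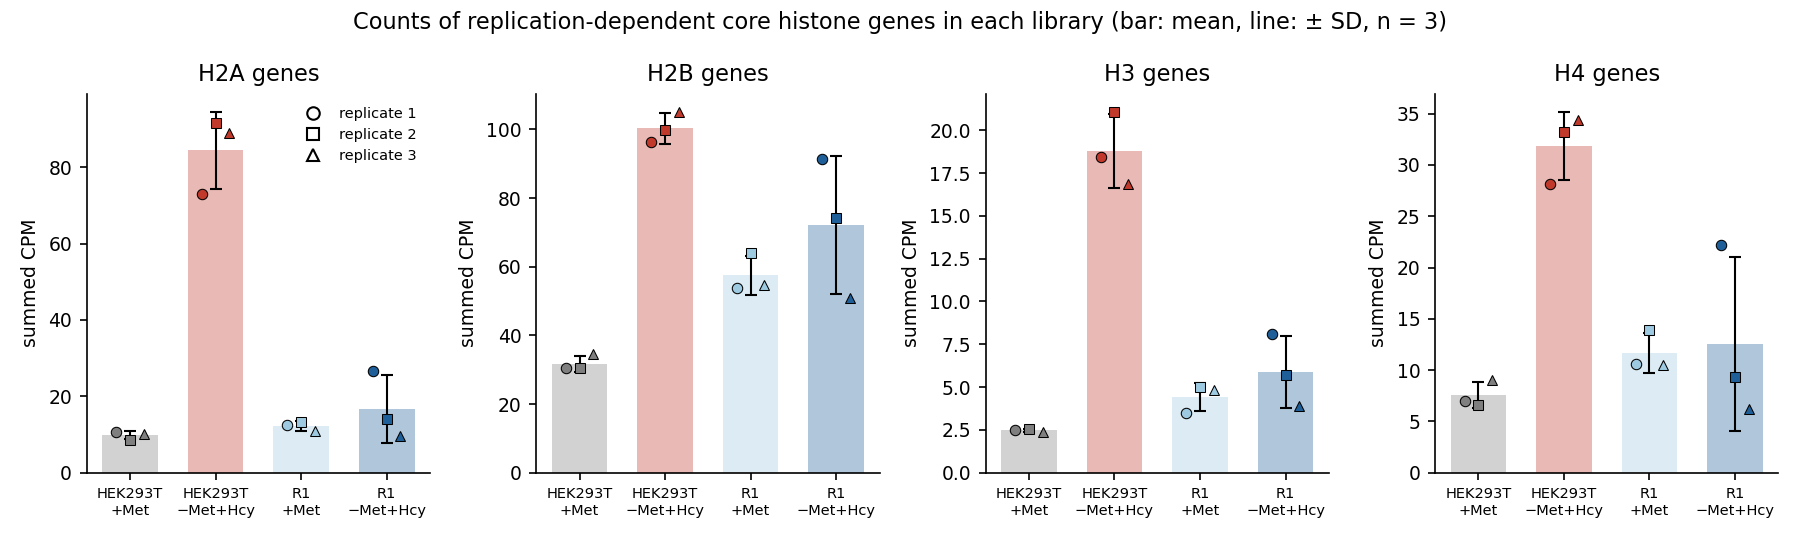
Summed CPM of the H2A, H2B, H3 and H4 genes (y axis, 1 panel each) in the 4 groups (x axis), with points for the 3 libraries, bars for the mean and lines for the SD. HEK293T −Met+Hcy lies above the other groups for each histone, and in R1 −Met+Hcy replicate 3 is the lowest library in every panel.

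The first comparison asked which members changed when HEK293T cells were moved to homocysteine for 12 h. Of the 44 tested members, 9 were called higher (adjusted p under 0.05 and a log2 fold change over 1) and none lower, where 3.04% of all genes tested were called higher and 1.59% lower. The 9 were 3 of 13 H2A, 2 of 11 H2B, 2 of 9 H3 and 2 of 11 H4 genes. An unadjusted p under 0.05 was reached by 21 members in the direction of −Met+Hcy and by none in the other, against 12.9% and 9.49% of all genes. The fitted change was positive in 40 of the 44, and the median was 1.84 on the log2 scale, or 1.74 with H2BC9 and H3C1, which were at 0 in +Met, at their lower bounds, beside 0.034 for all genes tested. In 32 members every −Met+Hcy library exceeded every +Met library in CPM, a pattern that 38.6% of all genes showed, and in none was it the reverse (9.8% of all genes). Separation of single members, named below, is to be read beside that share.

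Among the H2A genes, H2AC6 had 8, 8 and 23 counts with methionine and 320, 471 and 363 with homocysteine. Its log2 fold change was 4.60 ± 0.491 (SE; edgeR quasi-likelihood test, adjusted p = 0.000537). For edgeR values, SE here and below is the absolute log2 fold change divided by the square root of the test's F statistic. It is not a separately fitted standard error. H2AC18 and H2AC19, which share their values, had 44, 22 and 41 counts with methionine and 251, 413 and 367 with homocysteine, or 2.98 ± 0.416 on the log2 scale (edgeR adjusted p = 0.00242). No library of one medium overlapped with the other in these genes. H2AC20 had 14, 32 and 27 counts against 97, 104 and 124 and was not called (log2 fold change 1.88 ± 0.537, edgeR adjusted p = 0.0564). H2AC11 had 12, 12 and 8 counts with methionine and 27, 24 and 25 with homocysteine, and H2AC13 had 6, 5 and 10 against 24, 34 and 34; both were separated between media and neither was called. The other 7 tested H2A genes had log2 fold changes between −0.23 and 2.83, none called.

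Among the H2B genes, H2BC12 had 411, 352 and 477 counts with methionine and 985, 1210 and 1167 with homocysteine. With a log2 fold change of 1.16 ± 0.198 (edgeR adjusted p = 0.00614) it was the most abundant member and the called one with the smallest fold. H2BC5 had 18, 27 and 22 counts against 176, 214 and 166, a log2 fold change of 2.76 ± 0.299 (edgeR adjusted p = 0.000574). Both genes were separated between the media. The 4 other leading H2B genes were also separated, as were 38.6% of all genes in this direction, but not called. H2BC11 had 10, 11 and 21 counts with methionine and 60, 60 and 62 with homocysteine. H2BC18 had 16, 12 and 19 against 45, 78 and 67, and H2BC21 had 4, 9 and 9 against 25, 51 and 44. H2BC4, which shares a start region with H2AC6, had 13, 9 and 1 against 28, 36 and 45. Their log2 fold changes lay between 1.73 and 2.14, with edgeR adjusted p from 0.209 to 0.227.

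Among the H3 genes, H3C10 had 0, 1 and 6 counts with methionine and 94, 105 and 90 with homocysteine. This was the largest fold among called members (log2 fold change 5.04 ± 1.01, edgeR adjusted p = 0.0130), from the lowest starting count. H3C6, the H3 member in which no stem-loop was matched, had 7, 3 and 8 counts against 25, 50 and 36 (2.32 ± 0.470 on the log2 scale, edgeR adjusted p = 0.0136). H3C2 had 5 counts in every library with methionine and 31, 48 and 39 with homocysteine, and was not called (2.66 ± 0.851, edgeR adjusted p = 0.0839). H3C14 and H3C15 had 7, 8 and 5 counts against 45, 59 and 33 (2.46 ± 0.884, edgeR adjusted p = 0.120), and H3C13 had 3, 7 and 3 against 10, 18 and 17. All of these were separated between the media. The calls of H3C10 and H3C6 rested on each of several libraries, with adjusted p up to 0.0646 for H3C10 (without HEK293T +Met replicate 2) and up to 0.0728 for H3C6 (without HEK293T −Met+Hcy replicate 2).

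Among the H4 genes, H4C14 had 22, 22 and 35 counts with methionine and 136, 191 and 181 with homocysteine (log2 fold change 2.40 ± 0.458, edgeR adjusted p = 0.0103). H4C15, whose counts follow those of H4C14, had 17, 16 and 26 against 102, 143 and 135 (2.40 ± 0.469, edgeR adjusted p = 0.0115). The media did not overlap for either gene. Without HEK293T +Met replicate 1 their adjusted p was 0.0621 and 0.0651, and without replicate 2 of that group it was 0.0512 and 0.0559. H3C10 and H3C6 also lost their calls without either of these libraries, which left 5 members called in each case. H4C11 and H4C12 had 26, 15 and 27 counts against 51, 68 and 78, separated but not called (1.26 ± 0.458, edgeR adjusted p = 0.123). H4C8 had 6, 8 and 9 counts against 20, 41 and 24, and H4C5 had 2, 7 and 9 against 18, 19 and 10.

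**Figure D2:**
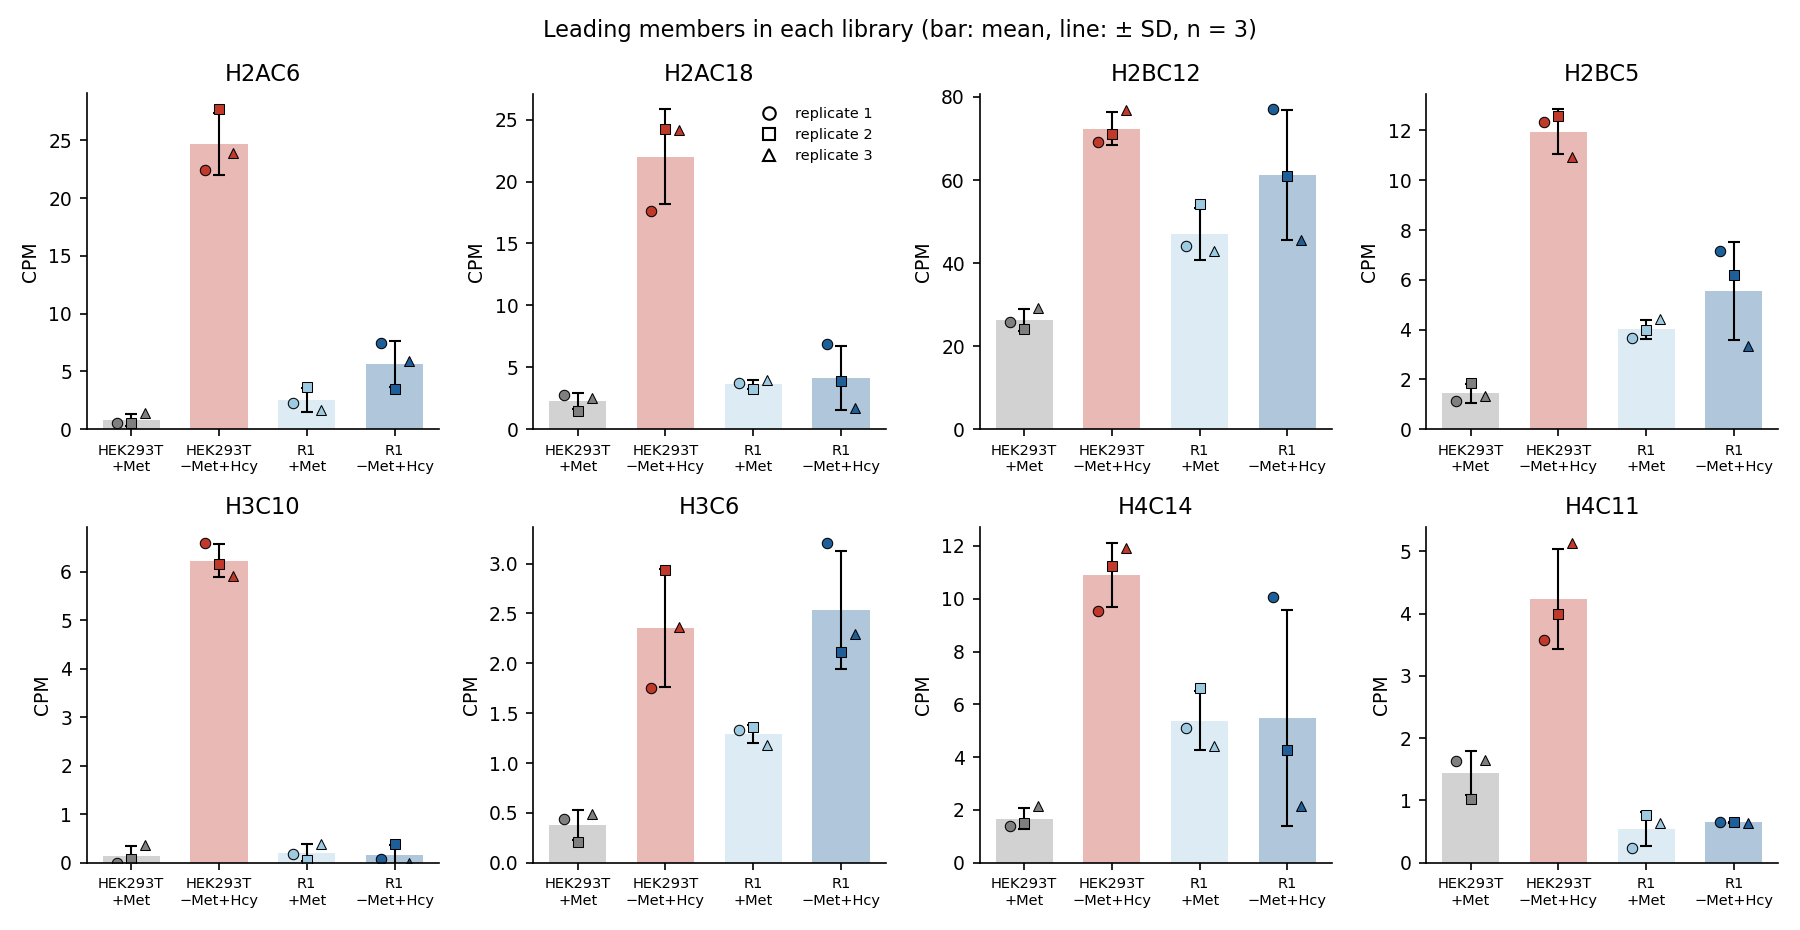
CPM (y axis) of 8 leading members in the 4 groups (x axis), with points for the libraries, bars for the mean and lines for the SD. HEK293T −Met+Hcy is separated from HEK293T +Met in all 8 (38.6% of all genes were separated in this direction), and H3C10 is near 0 in the 3 other groups.

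The spread that these tests use comes from all 12 libraries. Without R1 −Met+Hcy replicate 3, which is in neither HEK293T group, 21 members were called higher in this comparison, among them all 9, where 6.76% of all genes were called higher, and the median log2 fold change was 1.84. The added 12 were H2AC15, H2AC20, H2BC4, H2BC11, H2BC15, H2BC18, H2BC21, H3C2, H3C14, H3C15, H4C11 and H4C12. With the 6 HEK293T libraries alone, 24 of the 39 members then tested were called, against 7.87% of all genes.

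The same comparison in R1 asked whether the medium moved these genes in the clone that grows in it. No member was called in either direction, with 0.00583% of all genes called higher and 0.0% lower, and at an unadjusted p under 0.05 there were 3 higher and 1 lower, near the 5.68% and 2.11% of all genes. There were 5 and 1 without R1 −Met+Hcy replicate 3, against 4.49% and 2.57% of all genes, and again none was called (0.0176% and 0.0% of all genes). DESeq2 called none either. The median log2 fold change of the 44 was 0.18, with 26 positive, 17 negative and H2BC9 at 0 in both groups, and without R1 −Met+Hcy replicate 3 it was 0.43. H2AC6 had 39, 68 and 21 counts with methionine and 102, 53 and 111 with homocysteine (1.18 ± 0.427, edgeR adjusted p = 0.622). Its groups overlapped. H3C6 had 23, 25 and 15 counts against 44, 32 and 43 (1.00 ± 0.431, edgeR adjusted p = 0.622), and it was the only member whose −Met+Hcy libraries all exceeded the +Met ones in CPM (5.22% of all genes). There were 6 such members without R1 −Met+Hcy replicate 3 (14.2% of all genes). H2BC12 had 760, 1000 and 542 counts against 1056, 926 and 855 (0.40 ± 0.196). Without R1 −Met+Hcy replicate 3 these were 1.02 (H2AC6), 0.98 (H3C6) and 0.50 (H2BC12) on the log2 scale, none called. H3C10 had 3, 1 and 5 counts against 1, 6 and 0, the range it had in HEK293T +Met. H4C14 had 88, 122 and 56 counts against 138, 65 and 40, and H2AC18 had 64, 60 and 50 against 94, 59 and 32, each with the third −Met+Hcy library lowest. H4C4 had 3, 2 and 2 counts in +Met and none in −Met+Hcy, at least 2.30-fold lower with a floor of 3 counts over the group, and it was the only member separated in that direction (4.87% of all genes), with or without that library.

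**Figure D3:**
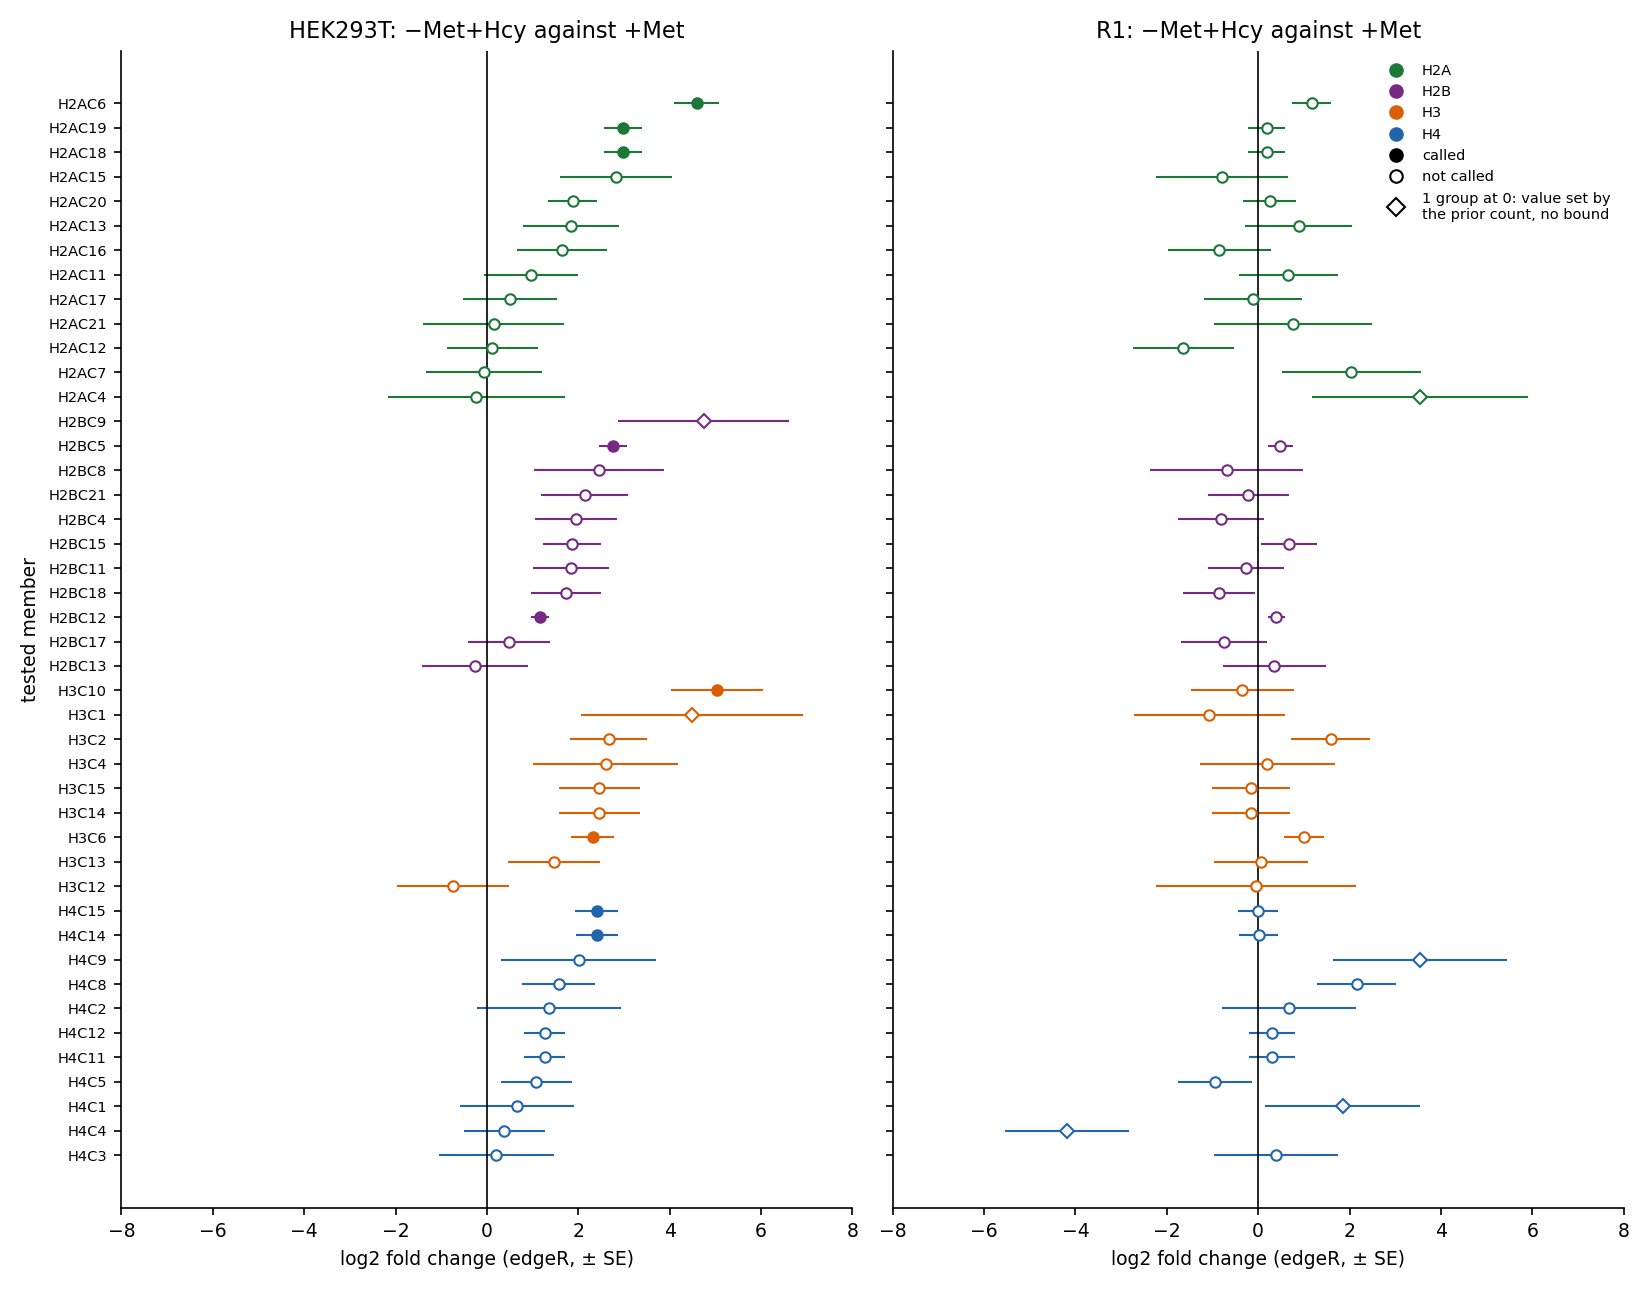
Log2 fold change of −Met+Hcy over +Met from edgeR (x axis, lines are ± SE) for the tested members (y axis), in HEK293T on the left and R1 on the right, coloured by histone and filled where called. Filled points occur on the left alone (9 members). Diamonds mark genes at 0 in 1 of the groups, whose value depends on the prior count, and H2BC9 is left out on the right because both groups are at 0.

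Whether the medium acted differently on R1 was tested as an interaction term. No member was called (0.0583% of all genes were called lower, 0.0% higher), and 10 members had an unadjusted p under 0.05, all with the lower response in R1, where 5.05% of all genes had such a p in that direction and 4.62% in the other. The interaction was −2.28 ± 0.402 for H2BC5 (edgeR adjusted p = 0.0964), −3.42 ± 0.629 for H2AC6 (0.111) and −2.80 ± 0.565 for H2AC18 and H2AC19 (0.130), all on the log2 scale. Without R1 −Met+Hcy replicate 3, 18 members had an unadjusted p under 0.05 in that direction (9.27% of all genes). These 4 members were then called, where 1.08% of all genes were, at −2.07 for H2BC5 (edgeR adjusted p = 0.00485), −3.57 for H2AC6 and −2.47 for H2AC18 and H2AC19 (both 0.0145). DESeq2 on the 12 libraries called 7 members and 0.87% of all genes lower. H2BC12 had an interaction of −0.76 ± 0.277 (edgeR adjusted p = 0.412), or −0.66 ± 0.239 without that library (0.183).

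**Figure D4:**
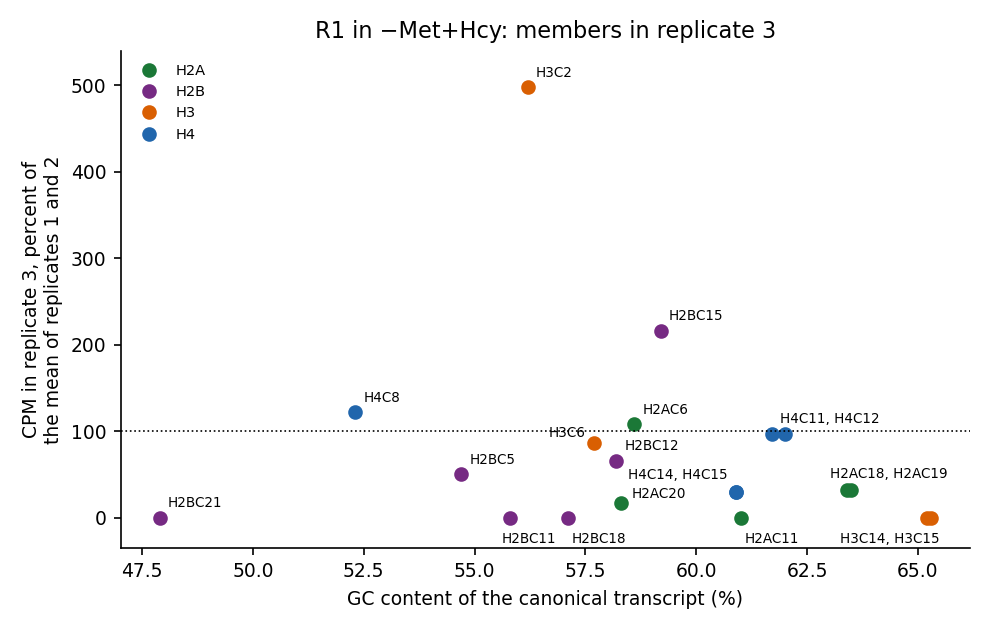
CPM in R1 −Met+Hcy replicate 3 as a percent of the mean of replicates 1 and 2 of that group (y axis), against the GC content of the canonical transcript (x axis), for the 20 members with at least 20 counts in the 3 libraries together. Of these, 6 are at 0 over the whole range of GC content, and 4 are above 100%, namely H2AC6 (108%), H4C8 (122%), H2BC15 (216%) and H3C2 (498%).

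R1 was next compared with HEK293T in each medium, with the same HEK293T and R1 libraries as above. In +Met, H2BC5 was called higher in R1 (18, 27 and 22 counts in HEK293T and 63, 73 and 56 in R1, log2 fold change 1.13 ± 0.293, edgeR adjusted p = 0.0302), where 4.71% of all genes were called higher. H4C11 and H4C12 were called lower, with 26, 15 and 27 counts in HEK293T and 4, 14 and 8 in R1 (−1.75 ± 0.491, edgeR adjusted p = 0.0416; 2.95% of all genes). The groups were separated in each of these genes. The calls depended on single libraries: without HEK293T +Met replicate 3 the adjusted p was 0.113 for H2BC5 and 0.140 for H4C11, and without R1 +Met replicate 1 it was 0.0785 and 0.158. With the replicate number as a block it was 0.0602 and 0.0745, so that none of the 3 was called, and without a filter on low counts H4C11 and H4C12 were not called (0.052). Without R1 −Met+Hcy replicate 3, 6 members were called higher (H2AC6, H2BC5, H2BC21, H3C6, H4C14 and H4C15; 8.97% of all genes) and 3 lower (H2AC20, H4C11 and H4C12; 5.28%). H4C14 and H4C11, both H4 genes, then lay on opposite sides, with H4C14 at 22, 22 and 35 counts in HEK293T and 88, 122 and 56 in R1. In 11 members all R1 libraries exceeded all HEK293T libraries in CPM (38.1% of all genes), and in 6 they were all below (9.15%). The median over the 44 members was −0.20 on the log2 scale, or −0.10 with members at 0 in one line at their bounds and H2BC9 left out.

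In −Met+Hcy, 12 members were called lower in R1 than in HEK293T and none higher (4.66% of all genes lower, 5.29% higher). They were 6 H2A genes (H2AC6, H2AC15, H2AC16, H2AC18, H2AC19 and H2AC20), 2 H2B genes (H2BC5 and H2BC18), H3C10 and 3 H4 genes (H4C4, H4C11 and H4C12). The median log2 difference of the 44 was −1.70, or −1.34 without R1 −Met+Hcy replicate 3, beside −0.008 for all genes. In 28 members all R1 libraries were below all HEK293T libraries (17.8% of all genes), and 28 were without R1 −Met+Hcy replicate 3 (23.4%). With the replicate number as a block 9 members were called lower, and the share of all genes called in that fit is not given. H2AC6 had 320, 471 and 363 counts in HEK293T and 102, 53 and 111 in R1 (−2.14 ± 0.423, edgeR adjusted p = 0.00612), lower but still above HEK293T +Met. H3C10 had 94, 105 and 90 against 1, 6 and 0 (−5.34 ± 1.02, edgeR adjusted p = 0.00502). H2AC20 had 97, 104 and 124 against 21, 14 and 4 (−3.07 ± 0.569, edgeR adjusted p = 0.00426). H4C11 and H4C12 had 51, 68 and 78 against 9, 10 and 12 (−2.70 ± 0.488, edgeR adjusted p = 0.00367), and their R1 counts were low in both media. Without R1 −Met+Hcy replicate 3 these 5 genes were at −2.28 (H2AC6), −4.75 (H3C10), −2.62 (H2AC20) and −2.78 (H4C11 and H4C12), all called.

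H2AC18 and H2AC19 had the lowest adjusted p of the 12, with 251, 413 and 367 counts in HEK293T and 94, 59 and 32 in R1 (−2.48 ± 0.403, edgeR adjusted p = 0.00201), or −2.15 ± 0.301 without R1 −Met+Hcy replicate 3. H2BC5 had 176, 214 and 166 against 98, 94 and 63 (−1.15 ± 0.276, edgeR adjusted p = 0.0168). The other 4 called members had few counts in R1. H2AC15 had 18, 29 and 25 counts in HEK293T against 3, 0 and 0 in R1, a ratio of 24.6 with a 95% counting interval of 8.09 to 122.0 that covers counting error only, or 14.9 (4.91 to 74.0) without the third library. H2AC16 had 23, 37 and 18 against 6, 0 and 0. H4C4 had 7, 9 and 2 against none, at least 6.15-fold lower in R1. H2BC18 had 45, 78 and 67 against 17, 14 and 0. H2AC15, H2AC16 and H2BC18 had adjusted p of 0.0497, 0.0490 and 0.0487 and lost their calls when any of 8, 10 and 10 single libraries was left out. Without R1 −Met+Hcy replicate 3, 16 members were called lower, 11 of them among the 12, where 6.44% of all genes were called lower. The one lost was H2BC5, whose log2 difference of −0.94 no longer passed the fold threshold. H2BC12 was not called (985, 1210 and 1167 counts against 1056, 926 and 855).

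Neighbouring genes could be followed as pairs. Within 1000 bases of each other's start, 12 divergent pairs of members were found, 11 of them an H2A and an H2B gene, with 194 to 979 bases between the starts. In 7 pairs both genes were tested, and in 6 of these both had a positive fitted change in HEK293T −Met+Hcy. Since 40 of the 44 tested members had a positive change, this count does not show a link between partners. The partners differed in level and in size of change. H2AC6 and H2BC4, 246 bases apart, were at 16.2 and 2.05 CPM per kilobase, and their log2 fold changes were 4.60 and 1.95. H2BC12 and H2AC12, 251 bases apart, were at 104.5 and 0.707 CPM per kilobase, with log2 fold changes of 1.16 and 0.12. H2AC20 and H2BC21, 236 bases apart on chromosome 1, had 1.88 and 2.14. In the pair H2AC13 and H2BC13 the fitted changes had opposite signs (1.84 and −0.26), and H2BC13 had only 57 counts in all.

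The annotation also lists transcripts that run more than 200 bases past the stop codon's site in the canonical form for 14 of the 60 members. Of these, 12 were tested and 6 were called in HEK293T (H2AC6, H2BC5, H3C6, H3C10, H4C14 and H4C15), and their median level over the 12 libraries was 1.67 CPM. Of the other 46, 32 were tested and 3 were called (H2AC18, H2AC19 and H2BC12), with a median level of 0.142 CPM. Over all genes 3.04% were called higher. Since the level differs between these sets, a difference in calls cannot be told apart from one in level. This grouping was made after the values were seen and has no test, and the files add all transcripts of a gene, so longer and canonical forms cannot be told apart here.

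The genes around the core histones were taken as 6 lists, of which the processing list shares 3 genes with S phase and 4 with polyadenylation, and chaperones share 3 with S phase. Between the HEK293T media 3.04% of all genes tested were called higher and 1.59% lower. Between the R1 media these shares were 0.00583% and 0.0%. Of the 5 linker histone genes of the same cluster, which encode H1 and bind the nucleosome's outer DNA, 4 were tested and 2 were called higher in HEK293T −Met+Hcy, none lower. H1-2 went from 4.44 ± 1.27 CPM to 113.7 ± 17.6 (log2 fold change 4.38 ± 0.304, edgeR adjusted p = 8.23e-05), and in R1 it was at 5.27 ± 1.22 and 15.8 ± 3.18 CPM. H1-3 had no count in HEK293T +Met and was at least 14.5-fold higher in −Met+Hcy (0.912 ± 0.420 CPM). The interaction of H1-2 passed the test (−2.75 ± 0.389, edgeR adjusted p = 0.0460), also without R1 −Met+Hcy replicate 3 (−2.85 ± 0.377, edgeR adjusted p = 0.00409), and its R1 level was then still 15.8 CPM. The median of the 4 was 3.22, or 2.96 with H1-3 at its bound, and none was called in R1 by edgeR. DESeq2 called 1 of them higher in R1, and the share of all genes called in that fit is not given.

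The next list held 13 histone genes taken as replication-independent, where 3.04% of all genes were called higher in HEK293T and 1.59% lower. From the list 1 gene was called higher and none lower. This was the linker histone H1-10 (112.5 ± 11.4 to 659.5 ± 18.02 CPM, log2 fold change 2.25 ± 0.528, edgeR adjusted p = 0.0254). Leaving out any 1 of the 6 HEK293T libraries left 0 genes of the list called higher. The median of the list was 0.06, and none was called in R1. Most of these genes are polyadenylated and expressed outside S phase, but H2AW and H2BU1 belong to a small replication-dependent cluster and H2AX can also give an mRNA that ends in the stem-loop. In HEK293T their log2 fold changes were 1.88 (H2AW, edgeR adjusted p = 0.0504), 2.96 (H2BU1, 0.117) and 0.90 (H2AX, 0.122), none called, and the median of the other 10, a split made after the values were seen, was −0.21.

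Of 27 genes for transcription, 3′ end processing and decay of histone mRNA, 2 were called higher in HEK293T and none lower. Over all genes 3.04% were called higher and 1.59% lower, and the median of the list was −0.09. ZNF473, a zinc finger protein of the U7 snRNP pathway, was at 21.2 ± 3.29 and 66.2 ± 4.83 CPM (1.36 ± 0.228, edgeR adjusted p = 0.00584). TUT7, a terminal uridylyltransferase, was at 17.7 ± 6.52 and 54.0 ± 14.8 CPM (1.31 ± 0.363, edgeR adjusted p = 0.0492). SLBP was at 131.1 ± 3.99 and 118.3 ± 13.1 CPM in HEK293T (−0.44 ± 0.239, edgeR adjusted p = 0.307) and at 161.4 ± 29.2 and 167.3 ± 36.5 in R1, the latter 148.0 without R1 −Met+Hcy replicate 3. NPAT was at 44.7 ± 10.4 and 43.0 ± 4.64 CPM in HEK293T (−0.35 ± 0.297, edgeR adjusted p = 0.534) and at 47.3 ± 3.27 and 60.3 ± 24.8 in R1, the latter 46.2 without it.

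Of 43 S phase genes, DTL, a substrate receptor of the CRL4 ubiquitin ligase, was called higher in HEK293T (1.30 ± 0.173, edgeR adjusted p = 0.00203), none was lower, and the median was −0.15. Of 19 genes of the polyadenylation machinery, the RNA kinase CLP1 was called higher (1.09 ± 0.218, edgeR adjusted p = 0.0127), none was lower, and the median was −0.21. None of 20 histone chaperone genes was called, with a median of −0.15. Beside these 3 lists, 3.04% of all genes were called higher in HEK293T and 1.59% lower. In R1 no gene of these lists was called, with or without R1 −Met+Hcy replicate 3.

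**Figure D5:**
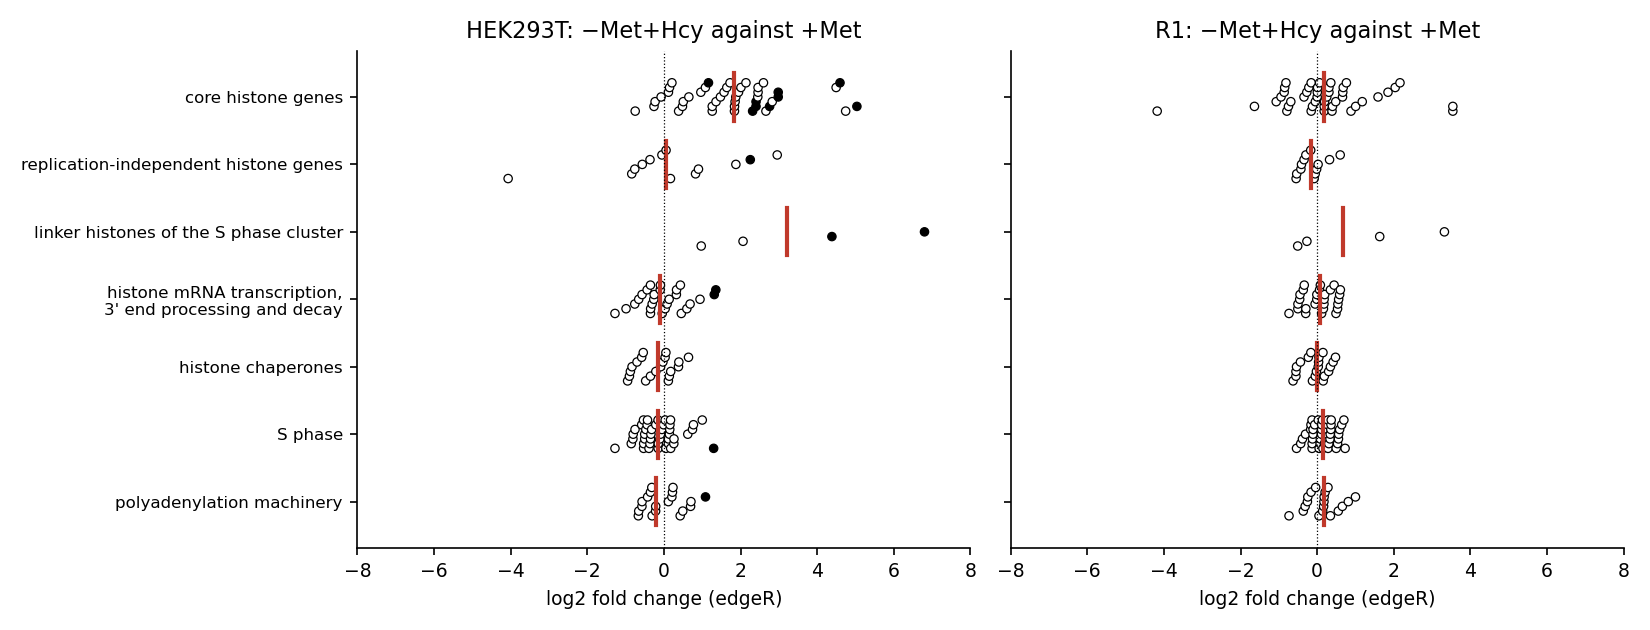
Log2 fold changes of −Met+Hcy over +Met from edgeR (x axis) for the tested core histone genes and the 6 lists (y axis, with H2AW, H2BU1 and H2AX kept in the replication-independent list), in HEK293T on the left and R1 on the right, with called genes filled and red lines at the medians. In HEK293T the medians of the core histone genes (1.84) and of the S phase linker histones (3.22) lie apart from those of the other 5 lists, which are between −0.21 and 0.06.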

How the data were processed

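RNA sequencing of 12 libraries was analysed. Per the labels and the methods, the authors quantified reads with kallisto 0.48.0 against GRCh38, added the estimated counts of each gene's transcripts, and deposited them as whole numbers without scaling; the annotation release of their index is not given in the sources used here. The 868 genes without a symbol were kept. Counts were fitted in R 4.3.3 with edgeR 4.0.16 (TMM, quasi-likelihood, 1 mean per group, 8 residual degrees of freedom, all 12 libraries, summed count of at least 10), with p-values adjusted by Benjamini-Hochberg over 17162 genes. CPM used column sums. Annotation came from GENCODE on GRCh38 and promoters from RefSeq. Named were the 6 members per histone with the highest mean CPM, members called in any of the 5 comparisons, called genes of the lists, SLBP and NPAT; others are given for small counts or as pair partners, chosen after their values were seen. The members and lists were chosen with earlier results of these data known. Alternatives included DESeq2 1.42.0, RLE scaling, other filters, a GC trend removed by loess (span 0.3), the replicate block and leaving out each library. One gene of a list is not reported here. The procedure was tested on simulated data. The changed genes there had higher counts than many members and no library was made to stand apart, so these conditions were not covered.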

Additional observations from a re-analysis of the deposited data

Results flagged for a closer look

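The medium response of the linker histone gene H1-2 differed between the lines by the interaction term of the edgeR quasi-likelihood model, with an adjusted p of 0.0460 (0.00409 without R1 −Met+Hcy replicate 3). The response of R1 minus that of HEK293T was −2.75 ± 0.389 (SE) on the log2 scale. The fitted changes of both lines had the same sign, with a log2 fold change of 1.63 ± 0.277 in R1 and 4.38 in HEK293T. The R1 change was not called (edgeR adjusted p = 0.579, or 0.152 without R1 −Met+Hcy replicate 3). No core histone gene passed this test with all 12 libraries.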

How the results depend on the processing

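Low counts limit most members. Leaving out R1 −Met+Hcy replicate 3 lowered the SE of all 44 tested members between the HEK293T media and of 34 to 41 of the 44 in each of the other 4 comparisons. Reported counts of called members are 9 (higher, HEK293T media), 0 (interaction), 1 higher and 2 lower (R1 against HEK293T in +Met) and 12 lower (in −Met+Hcy). With the compared groups alone, whose spread comes from those libraries, they were 24 in HEK293T, 4 higher in +Met and 6 lower in −Met+Hcy. DESeq2 gave 7 lower in the interaction and 3 higher in +Met. With the GC trend removed these were 3 and 3. Without a filter none was lower in +Met. Leaving out single libraries gave 5 to 21 (HEK293T), 0 to 4 (interaction), 0 to 6 higher and 0 to 3 lower (+Met) and 7 to 16 (−Met+Hcy). The share of all genes called moved as well. For higher in HEK293T it was 3.04% in the reported fit, 6.76% without R1 −Met+Hcy replicate 3 and 7.87% with the compared groups alone. Where a fit's share is not given, here and below, a change in the members cannot be told apart from a change over all genes. No called member changed sign under any alternative run. Of the 24 calls, 11 held under all 23 alternatives, namely H2AC6, H2AC18, H2AC19, H2BC5 and H2BC12 between the HEK293T media and H2AC6, H2AC18, H2AC19, H3C10, H4C11 and H4C12 between the lines in −Met+Hcy. The cause was not tested.

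Whether the replicate numbers pair the libraries was not settled. Same-numbered libraries had correlations of their deviations of 0.003, −0.067 and 0.484 between the HEK293T media and 0.074, −0.47 and −0.09 between the R1 media. Between the lines these were 0.068, −0.468 and −0.504 in +Met and 0.003, −0.16 and 0.215 in −Met+Hcy. With 3 libraries per group such mixed values cannot exclude a shared batch. With the replicate block 9 members were called in HEK293T, 0 higher and 0 lower in +Met, 9 lower in −Met+Hcy, and 1 linker histone and 1 gene of histone mRNA processing in HEK293T. With the GC trend removed and the replicate block, 3 replication-independent histone genes were called higher, and 1 processing gene and 1 S phase gene lower.

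Among the lists in HEK293T, replication-independent histone genes called higher numbered 3 with DESeq2, 3 with the compared groups alone, 2 with filterByExpr, 2 with no filter, 2 with 1 entry per symbol, 4 with the GC trend removed and 0 to 3 without single libraries, and 1 was lower by the adjusted p alone. Linker histones called higher numbered 1 with filterByExpr and 1 to 3 without single libraries, and 1 was called in R1 by DESeq2. Processing genes called higher numbered 1 with RLE scaling, 1 with robust estimation and 1 to 2 without single libraries. Processing genes called lower numbered 1 with DESeq2, 1 with the compared groups alone, 1 with the GC trend removed, 2 by the adjusted p alone and 0 to 1 without single libraries. The S phase genes called lower had the same 5 counts, and those called higher numbered 2 with the compared groups alone and 1 to 2 without single libraries. One chaperone gene was lower with the GC trend removed, and 0 to 1 polyadenylation genes were higher without single libraries. The ratios of summed CPM in HEK293T were 6.96 (H2A), 2.58 (H2B) and 6.19 (H3) with TMM-scaled library sizes and 6.93, 2.57 and 6.16 with RLE-scaled ones.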
